A study of Mus musculus with 2 samples.

Results

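The 6 genes that encode the platelet-derived growth factor (PDGF) chains and their receptors, Pdgfa, Pdgfb, Pdgfc, Pdgfd, Pdgfra and Pdgfrb, were followed across the cell classes of the newborn mouse kidney. They were taken by symbol from the 32285 genes of the count matrices, and were chosen with earlier results of these data known. The data are droplet single-cell RNA sequencing of whole kidney at postnatal day 0, in 2 libraries of 1 genotype, Rbpj c/+ ; Foxd1cre/+. It is read here as 1 conditional copy of Rbpj, the transcription factor of Notch signalling, with a Cre at Foxd1, a gene of the stromal progenitors that give rise to stroma and mural cells. No other genotype was analysed here, so that an effect of the genotype was not tested. It cannot be told apart from the differences between cell classes given below. The labels do not say whether the libraries came from separate animals. The p-values measure how far differences between classes vary between these 2 libraries, beyond an overall shift of a library. That variation may be technical.

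The PDGF chains form disulphide-linked dimers that bring pairs of receptor tyrosine kinases together on mesenchymal cells. Receptor alpha (Pdgfra) binds the A, B and C chains and receptor beta (Pdgfrb) mainly the B and D chains. The C and D chains are secreted with a CUB domain that proteases must remove before they can bind. In the kidney, Pdgfb of endothelial cells and Pdgfrb of mesangial cells and pericytes are known for building the glomerular capillary tuft, and fibroblasts of the interstitium carry Pdgfra.

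Per gene, the annotation GENCODE M21 of GRCm38 (mm10) places Pdgfa (ENSMUSG00000025856) at chr5:138976014-138997370 on the minus strand and Pdgfra (ENSMUSG00000029231) at chr5:75152292-75198215 on the plus strand. It places Pdgfb (ENSMUSG00000000489) at chr15:79995874-80014977 on the minus strand, Pdgfc (ENSMUSG00000028019) at chr3:81036416-81214040 and Pdgfd (ENSMUSG00000032006) at chr9:6168584-6378850, both on the plus strand. Pdgfrb has the identifier ENSMUSG00000024620. Each of these genes except Pdgfrb overlaps 1 other gene listed in the matrices, and whether the counting used strand is not given in the sources used here.

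The 250 bases before a RefSeq start (GRCm38.p6) are shown for Pdgfa and Pdgfd, the ligands that were high together in the loop of Henle, for Pdgfc, the ligand of the nephron progenitors, and for Pdgfra, the stromal receptor. They are written in the gene's direction, with capitals on the letters GGGCGG of a box bound by Sp1-type factors, called the GC box, or on the letters TATAAA of the TATA box. These words and CCAAT were searched on both strands. Where capitals read CCGCCC, the GC box lies on the other strand.
Pdgfa, chr5:138994945-138995194, minus strand: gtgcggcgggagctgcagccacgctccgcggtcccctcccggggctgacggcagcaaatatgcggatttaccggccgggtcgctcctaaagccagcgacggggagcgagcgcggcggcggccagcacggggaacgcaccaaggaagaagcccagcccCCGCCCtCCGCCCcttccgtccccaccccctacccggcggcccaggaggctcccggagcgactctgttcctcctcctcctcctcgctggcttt
Pdgfd, chr9:6168236-6168485, plus strand: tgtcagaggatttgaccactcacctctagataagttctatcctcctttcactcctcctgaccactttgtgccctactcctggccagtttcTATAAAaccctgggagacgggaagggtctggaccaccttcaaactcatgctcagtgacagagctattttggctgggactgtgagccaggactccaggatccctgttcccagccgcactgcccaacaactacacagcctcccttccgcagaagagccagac
Pdgfc, chr3:81036166-81036415, plus strand: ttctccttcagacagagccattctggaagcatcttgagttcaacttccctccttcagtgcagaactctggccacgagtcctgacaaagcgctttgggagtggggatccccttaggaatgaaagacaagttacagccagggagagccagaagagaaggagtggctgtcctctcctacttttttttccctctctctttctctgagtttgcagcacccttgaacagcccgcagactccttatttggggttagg
Pdgfra, chr5:75152001-75152250, plus strand: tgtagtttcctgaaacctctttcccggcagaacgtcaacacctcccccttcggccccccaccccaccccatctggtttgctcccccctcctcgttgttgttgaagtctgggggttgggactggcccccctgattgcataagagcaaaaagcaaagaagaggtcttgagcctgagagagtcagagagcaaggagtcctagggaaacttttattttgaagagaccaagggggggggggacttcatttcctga
RefSeq gives 2 starts for Pdgfa, and the window of the upstream start is shown. The other Pdgfa window held 1 GC box and 66.4% G or C. The window shown held 2 GC boxes and 72.4% G or C, against a median of 52.4% over 32851 RefSeq promoters, of which 32.7% held a GC box. The Pdgfd window held the only TATAAA of these 4, a word found in 12.4% of all promoters. CCAAT, found in 33.8% of promoters, was in none of them. The windows of Pdgfc and Pdgfra held none of these 3 words. These matches describe letters and were not tested as binding sites.

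After quality filters and removal of doublets, 5284 cells remained in replicate 1 and 4064 in replicate 2, at medians of 14689.5 and 19773 unique molecular identifiers (UMIs, counted RNA molecules). The libraries held 200331687 and 173166168 UMIs over all barcodes and shared 6 cell barcodes. Cells were assigned by marker lists that hold no PDGF gene, so that each class name means like that type, and 89.6% fell into 4 compartments, stroma (1118 and 1043 cells), mural cells (205 and 147), endothelium (695 and 602) and epithelium (2684 and 1883). Unsupervised clusters placed the same cells in the same compartment for 98.9% of stroma, 98.9% of endothelium, 93.1% of epithelium and 74.4% of mural cells. The gate is a range of a score: 38 and 17 mural cells lay near its edge, against 53 and 41 stromal, 4 and 1 endothelial and 203 and 118 epithelial cells. Median scores of the stroma and mural lists were 0.406 and 0.108 in stroma and 0.125 and 0.382 in mural cells. The endothelium list had a median score of 0.684 in endothelium and 0.044 in mural cells. Subclasses that rest on only 2 markers are called by those genes: Foxd1-Ntn1, Penk-Alx1 and Clca3a1-Smoc2 stroma, Ren1-Akr1b7 mural cells and Ehd3-Sost endothelial cells. Levels are given as CPM, the UMIs of a gene per 1000000 UMIs of a class in a library, and are compared between classes within a gene and never between genes.

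Across the 4 compartments, the ligands and the receptors were high in different cells. Pdgfra and Pdgfrb were high in stroma and mural cells, Pdgfb in endothelium, and Pdgfa and Pdgfc in epithelium, whereas Pdgfd was spread over all. Of 36 differences (6 genes in 6 pairs of compartments), 35 passed an adjusted p of 0.05 in edgeR's quasi-likelihood test with Benjamini-Hochberg adjustment over 16680 genes, and every called difference had the same sign in both libraries. Most genes differ between such compartments. The share of all tested genes called was 64.7% between endothelium and epithelium, 37.8% between mural cells and endothelium, 49.3% between mural cells and epithelium, 50.7% between stroma and endothelium, 60.1% between stroma and epithelium and 21.2% between stroma and mural cells. All 6 members were called in each of these pairs but stroma against epithelium, where 5 were.

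Empty barcodes give the level of free RNA alone, of which the UMIs of a cell hold only a part. From haemoglobin counts that part was estimated at 4.22% and 4.73% in stroma and 23.1% and 56.5% in mural cells. In endothelium it was 33.0% and 22.1% and in epithelium 4.79% and 2.64%. A level under that of empty barcodes therefore does not by itself tell free RNA from RNA of the cells. The level in empty barcodes was 79.8 and 75.8 CPM for Pdgfa, 17.4 and 10.6 for Pdgfb, 74.1 and 62.3 for Pdgfc and 47.7 and 47.6 for Pdgfd. Pdgfa in stroma and endothelium, Pdgfb in stroma and epithelium, Pdgfc in stroma, mural cells and endothelium, and Pdgfd in mural cells lay under these levels in both libraries.

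**Figure D1:**
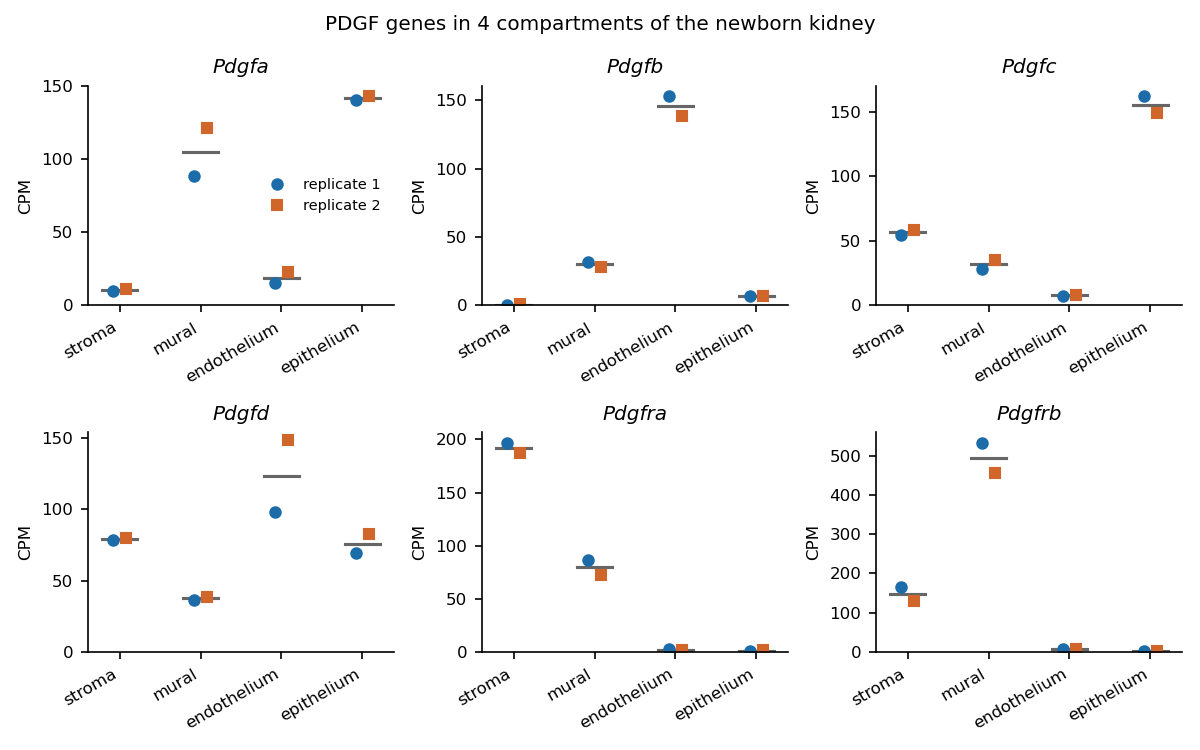
Level in CPM (linear axis from 0) of each PDGF gene in the 4 compartments, with 1 point per library (circle, replicate 1; square, replicate 2) and a bar at their mean. The libraries lie close together, and for Pdgfrb the mural points at 532 and 455 stand far above the stromal points at 164 and 129.

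Pdgfa, the chain that signals through receptor alpha, was epithelial and mural. Its level was 140.1 and 143 CPM in epithelium, 88.4 and 121 in mural cells, 15.2 and 22.5 in endothelium and 9.63 and 11.3 in stroma (replicates 1 and 2). Stroma, where Pdgfra is highest, thus held the least Pdgfa in both libraries. Epithelium exceeded stroma with a log2 fold change of stroma against epithelium of -3.69 (SE 0.14, adjusted p = 2.73e-08), and mural cells exceeded endothelium by 2.45 (SE 0.14, adjusted p = 9.51e-07). The difference between mural cells and epithelium was small, at -0.35 (SE 0.13, adjusted p = 0.0449). It passed the threshold in 1 of 12 other settings, and its sign turned in 3 of them, so that no order of these 2 compartments can be read.

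Within the epithelium Pdgfa peaked in the loop of Henle at 411 and 381 CPM, followed by the early nephron (renal vesicle to S-shaped body) at 233 and 246. Distal tubule lay at 79.5 and 88.2 and nephron progenitors at 71.3 and 68.3. The remaining tested epithelial classes, proximal tubule, ureteric or collecting duct, podocyte and intercalated cells, lay between 30.3 and 50.7. Urothelium, also part of the gated epithelium but untested with 20 and 10 cells, held 103 and 171. The loop of Henle and early nephron values did not overlap with each other or with any class below them except the early nephron with erythroid cells of replicate 1. Epithelial fold changes here and below are set against the mean of the log2 levels of the other tested epithelial classes, which weights classes of low level more than a mean of CPM does. For Pdgfa the log2 fold change was 2.71 in the loop (SE 0.16, adjusted p = 5.03e-13) and 1.66 in the early nephron (SE 0.17, adjusted p = 1.25e-08). Loop cells with a UMI of Umod, the uromodulin gene of the thick ascending limb, held 444 and 423 CPM (253 and 275 cells), and loop cells without one held 109 and 113 (54 and 78 cells). Median depths of those cells were 27483 and 29004 UMIs with Umod and 14770.5 and 20037 without. This split, like those of the nephron progenitors and the ureteric cells below, was chosen after the values were seen and has no test.

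Among mural cells, Pdgfa was higher in smooth muscle (111 and 211 CPM, 28 and 34 cells) than in pericyte or mesangial cells (51.8 and 60.7, 138 and 85 cells), with a log2 fold change of pericyte against smooth muscle of -1.66 (SE 0.34, adjusted p = 0.00139). The few Ren1-Akr1b7 mural cells (14 and 18) held 169 and 209 CPM, a level that entered no test because the class had under 20 cells in each library. After each cell was thinned to 3000 UMIs, 42.9% and 47.1% of smooth muscle cells held a Pdgfa UMI, against 12.3% and 16.5% of pericyte or mesangial cells. The stromal subclasses lay at 5.65 and 4.15 CPM in Foxd1-Ntn1 stroma, 13.0 and 17.9 in Penk-Alx1 stroma and 11.4 and 14.03 in Clca3a1-Smoc2 stroma. Foxd1-Ntn1 stroma was lower than Penk-Alx1 stroma by a log2 fold change of -1.72 (SE 0.43, adjusted p = 0.00905). The call was lost with thinned cells (-1.56, adjusted p = 0.107), and all these stromal levels lay far under the 79.8 and 75.8 CPM of empty barcodes.

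Pdgfb, the chain that recruits Pdgfrb-bearing cells to vessels, was an endothelial transcript. Endothelium held 153 and 138 CPM, mural cells 31.7 and 28.0, epithelium 6.84 and 6.68, and stroma 0.382 and 0.565. The 4 compartments kept this order in both libraries with no overlap. Stromal levels rest on 5 and 10 UMIs in all, against which the log2 fold change of stroma over endothelium was -8.25 (SE 0.17, adjusted p = 2.67e-09). It ran from -12.2 to -7.35 over 12 other settings, so its size is less certain than that SE implies. Endothelium exceeded epithelium by a log2 fold change of 4.56 (SE 0.11, adjusted p = 2.06e-09). Endothelial cells held 68.7% and 70.3% of all Pdgfb UMIs counted in cells. A Pdgfb UMI was found in 26.5% and 24.3% of thinned endothelial cells, against 0.153% and 0.267% of thinned nephron progenitors, the class taken as background. Without thinning the endothelial shares were 57.0% and 59.1% at median depths of 10682 and 13065 UMIs, and those of the progenitors 0.920% and 1.60% at 18117 and 25041.

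Arterial cells held the most Pdgfb, at 366 and 306 CPM (103 and 93 cells), and capillary or venous cells 78.1 and 81.4 (481 and 467 cells). Capillary or venous cells were lower than arterial cells by a log2 fold change of -1.99 (SE 0.23, adjusted p = 6.85e-07), and every one of 11 other settings called this difference. Ehd3-Sost endothelial cells, untested with 57 and 16 cells, held 227 and 359 CPM, overlapping with the arterial values. In thinned cells the share with a UMI was 55.3% and 49.5% among arterial cells and 17.3% and 17.6% among capillary or venous cells. The endothelial marker list summed to 8483 and 8730 CPM in arterial cells and 7401 and 8648 in capillary or venous cells, so that both subclasses carried their compartment's markers at similar levels.

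Outside the endothelium, podocytes held Pdgfb above the other tested epithelial classes, and mural cells held it without a called difference between their subclasses. Podocytes, the epithelial cells that clasp the glomerular capillaries, held 32.7 and 34.8 CPM, the other tested epithelial classes between 0.294 and 9.94. The log2 fold change of podocytes was 3.37 (SE 0.20, adjusted p = 2.13e-13), called in all 11 other settings. Pericyte or mesangial cells held 30.5 and 24.8 CPM and smooth muscle 8.32 and 30.2. Their log2 fold change was 0.27 (adjusted p = 0.818), with opposite signs in the 2 libraries. In the podocyte class the endothelial list summed to 829 and 845 CPM, of which 813 and 818 came from Cldn5, a claudin that podocytes are known to make, and to 296 and 307 in pericyte or mesangial cells, against 7904 in the endothelium of replicate 1. Its part in these levels was not tested. Nephron progenitors held the least of the tested epithelial classes, 0.294 and 0.388 CPM, on 6 UMIs in each library, with a log2 fold change of -4.15 (SE 0.39, adjusted p = 1.98e-09).

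Pdgfc, a latent chain that acts on receptor alpha once its CUB domain is cut away, was highest in cells of the nephrogenic zone. Epithelium held 162 and 149 CPM, stroma 54.6 and 58.4, mural cells 28.3 and 35.4 and endothelium 7.45 and 8.05. No 2 compartments overlapped. Nephron progenitors, the Six2 and Cited1 cells that give rise to all nephron epithelium, held 495 and 544 CPM and 55.8% and 58.4% of all Pdgfc UMIs. Their log2 fold change over the other epithelial classes was 3.95 (SE 0.19, adjusted p = 6.78e-15), and the call stood in all 11 other settings. The early nephron followed at 120 and 93.2 CPM, against a mean CPM of 108.3 and 105.8 in the other classes, which include the progenitors. On the log scale of the test it was higher (log2 fold change 1.22, SE 0.22, adjusted p = 6.39e-05), but by mean CPM it was lower in replicate 2. Podocytes were lowest at 6.27 and 3.64 (log2 fold change -3.67, SE 0.39, adjusted p = 1.36e-08). After thinning, 63.2% and 65.5% of progenitors held a UMI against 1.05% and 0.521% of podocytes, the background class here. Unthinned shares were 95.2% and 95.5% against 4.99% and 4.69%, with podocyte median depths of 9414 and 14369 UMIs.

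Progenitors with a UMI of Cited1 and none of Wnt4, the uncommitted state, held 394 and 468 CPM of Pdgfc (297 and 232 cells). Those with Wnt4 and no Cited1, entering the mesenchymal to epithelial transition, held 462 and 625 (77 and 32 cells). The ranges overlapped at 462 and 468. For Pdgfa the same split gave 45.1 and 52.6 CPM without Wnt4 and 112 and 88.7 with it, with no overlap. Ureteric cells with Ret or Wnt11, genes of the branching tip, and no Aqp2 held 107 and 77.1 CPM of Pdgfc (49 and 26 cells), whereas duct cells with Aqp2, the collecting duct water channel, and neither tip gene held 9.44 and 16.6 (113 and 100 cells). Pdgfa was close in the same cells, at 36.5 and 35.9 CPM in the tip and 51.1 and 48.1 in the duct. Median depths were 35933 and 27899 UMIs in the tip and 18324 and 26613 in the duct.

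Pdgfc also set the 3 stromal subclasses apart. Foxd1-Ntn1 stroma, named for genes of the stroma around the nephron progenitors, held 109.6 and 111 CPM, Penk-Alx1 stroma 33.7 and 36.0, and Clca3a1-Smoc2 stroma 6.98 and 3.81. Foxd1-Ntn1 stroma exceeded Penk-Alx1 stroma by a log2 fold change of 1.65 (SE 0.35, adjusted p = 0.00245) and Clca3a1-Smoc2 stroma by 4.42 (SE 0.47, adjusted p = 4.48e-07), and Penk-Alx1 stroma exceeded Clca3a1-Smoc2 stroma by 2.77 (SE 0.50, adjusted p = 9.42e-04). With free RNA subtracted, Foxd1-Ntn1 against Penk-Alx1 stroma was 1.78 and not called (adjusted p = 0.0991). Smooth muscle held 141 and 73.8 CPM against 9.08 and 23.5 in pericyte or mesangial cells (log2 fold change -2.79, SE 0.52, adjusted p = 6.13e-04). The libraries differed in size there, at -3.89 in replicate 1 and -1.63 in replicate 2, and with thinned cells the difference was -1.76 with an adjusted p of 0.159.

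Pdgfd, the latent chain of receptor beta, was the least compartmental of the ligands. Endothelium held 98.0 and 148 CPM, stroma 78.9 and 79.7, epithelium 69.4 and 82.6 and mural cells 36.6 and 38.5. Stroma and epithelium overlapped, and theirs was the only member difference not called (log2 fold change 0.16, SE 0.14, adjusted p = 0.343). A fit over all fine classes, which weights each class alike, called it at 1.14. Mural cells, which carry the most Pdgfrb, held the least Pdgfd of the 4 compartments, and their log2 fold change against endothelium was -1.73 (SE 0.17, adjusted p = 3.58e-05). Among them, smooth muscle held 122 and 45.3 CPM and pericyte or mesangial cells 24.0 and 39.1. The log2 fold change of pericyte against smooth muscle was -1.41 (SE 0.45, adjusted p = 0.0427). It was called in only 4 of the 8 other settings that tested it.

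Within compartments Pdgfd had 2 sharp peaks. Arterial cells held 287 and 462 CPM and capillary or venous cells 48.7 and 84.0, a log2 fold change of -2.41 for capillary or venous against arterial (SE 0.30, adjusted p = 1.55e-06). Loop of Henle cells held 264 and 236 CPM, with a log2 fold change over the other epithelial classes of 3.32 (SE 0.17, adjusted p = 6.24e-14). Both calls stood in all 11 other settings. Early nephron lay at 64.4 and 113 CPM and proximal tubule at 55.3 and 74.2, both called higher on the log scale (log2 fold changes 1.35 and 1.20), although the proximal tubule of replicate 1 lay under the mean CPM of the other classes, 59.8. Distal tubule, podocyte, ureteric or collecting duct and intercalated cells lay between 11.6 and 22.2 CPM, all called lower. Stromal subclasses could not be told apart, at 61.7 to 98.1 CPM with adjusted p-values from 0.791 to 0.944. A Pdgfd UMI was found in 34.0% and 61.3% of thinned arterial cells. Immune cells, the background class for Pdgfd, held 4 UMIs in replicate 1 and none in replicate 2.

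**Figure D2:**
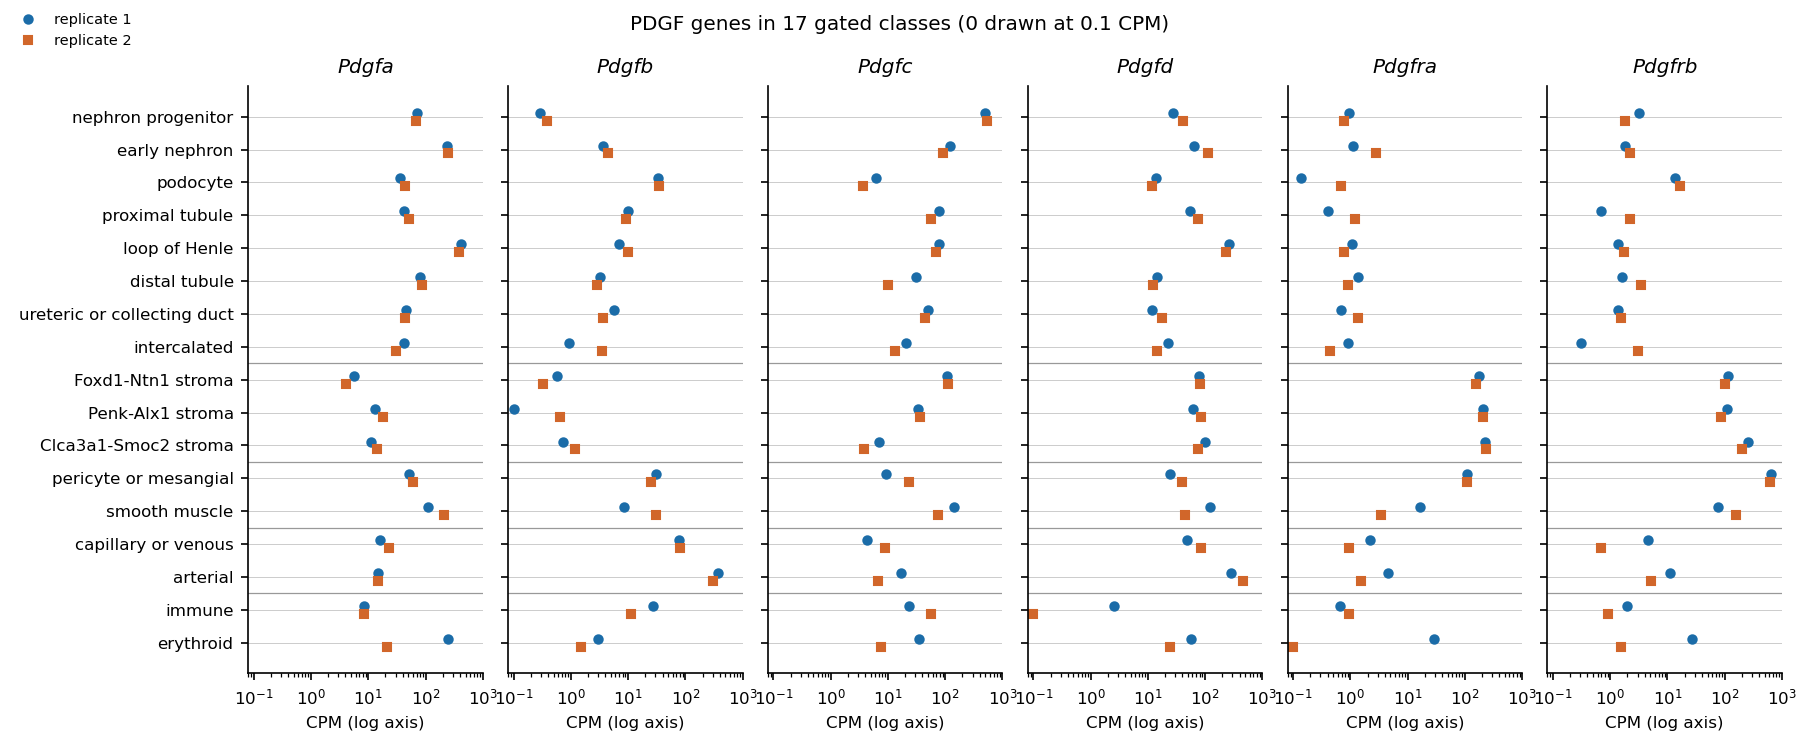
Level in CPM (log axis, 0 drawn at 0.1) of each PDGF gene in 17 classes, grouped from top to bottom into epithelium, stroma, mural cells, endothelium and blood, with a circle for replicate 1 and a square for replicate 2. The peaks are Pdgfa and Pdgfd in the loop of Henle, Pdgfb and Pdgfd in arterial cells, Pdgfc in nephron progenitors, Pdgfra in the 3 stromal classes and Pdgfrb in pericyte or mesangial cells.

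Pdgfra, the receptor of the A, B and C chains, was stromal. Stroma held 197 and 187 CPM, mural cells 86.1 and 72.7, endothelium 2.46 and 1.46 and epithelium 0.821 and 1.28. Stroma exceeded mural cells by a log2 fold change of 1.26 (SE 0.18, adjusted p = 8.36e-04) and epithelium by 7.62 (SE 0.22, adjusted p = 7.36e-09). With free RNA subtracted, the difference from mural cells was 0.97 and not called (adjusted p = 0.628). Stromal cells held 84.8% and 88.8% of the Pdgfra UMIs. The 3 stromal subclasses kept 1 order in both libraries, 224 and 231 CPM in Clca3a1-Smoc2 stroma, 205 and 208 in Penk-Alx1 stroma and 177 and 156 in Foxd1-Ntn1 stroma, but no pair of them was called (adjusted p-values 0.309 to 0.886). Foxd1-Ntn1 stroma against Clca3a1-Smoc2 stroma was called with thinned cells, at -0.70 with an adjusted p of 0.0177.

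Within the mural cells Pdgfra sat in pericyte or mesangial cells, at 109.0 and 109.6 CPM, while smooth muscle held 16.6 and 3.36 on 6 and 2 UMIs (log2 fold change 3.60, SE 0.57, adjusted p = 8.79e-05). Stromal markers summed to 1150 and 1406 CPM in pericyte or mesangial cells and to 2152 and 945 in smooth muscle, against 7935 and 7670 in stroma. Its part in the pericyte level was not tested. Endothelium and epithelium lay under the level of empty barcodes, 24.0 and 24.8 CPM, and their difference (log2 fold change 1.04, adjusted p = 0.0238) turned to -5.97 with free RNA subtracted. Thinned cells with a Pdgfra UMI made up 40.5% and 42.3% of stroma, 41 of 205 and 24 of 147 mural cells, and 0 and 1 cells of 406 and 276 in the proximal tubule, the background class for both receptors.

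Pdgfrb, the receptor of the B and D chains, was highest in mural cells and also present in all stroma. Mural cells held 532 and 455 CPM, stroma 164 and 129, endothelium 6.77 and 5.91 and epithelium 2.65 and 2.92. Stroma was lower than mural cells by a log2 fold change of -1.77 (SE 0.13, adjusted p = 1.39e-05), the reverse of the order for Pdgfra. With free RNA subtracted it was -2.22 and not called (adjusted p = 0.0750). Pericyte or mesangial cells led at 643 and 607 CPM, and smooth muscle held 77.7 and 156, a log2 fold change of 2.25 (SE 0.38, adjusted p = 2.12e-04). All 8 other settings that tested this difference called it. With Leiden clusters, with at least 10000 UMIs per cell and with the stricter gate a class fell under 20 cells, and it was not tested. Ren1-Akr1b7 mural cells, with 14 and 18 cells and no test, held 324 and 281 CPM. Although mural cells had the higher level, stroma held 49.8% and 54.3% of all Pdgfrb UMIs and mural cells 32.7% and 27.8%, with 1118 and 1043 stromal against 205 and 147 mural cells.

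Among stromal subclasses Clca3a1-Smoc2 stroma held the most Pdgfrb, 259 and 202 CPM, Foxd1-Ntn1 stroma 115 and 99.6 and Penk-Alx1 stroma 110.2 and 86.4. Clca3a1-Smoc2 stroma exceeded Foxd1-Ntn1 stroma (log2 fold change -1.10 for the latter, SE 0.32, adjusted p = 0.0288) and Penk-Alx1 stroma (-1.23, SE 0.33, adjusted p = 0.0264). Both calls were lost with DESeq2 (-1.14 and -1.26, adjusted p = 0.241 and 0.278), without the library term (adjusted p = 0.0733 and 0.0750) and with free RNA subtracted (adjusted p = 0.377 and 0.471). Pdgfrb and Pdgfc therefore ran in opposite orders between Clca3a1-Smoc2 stroma and Foxd1-Ntn1 stroma, whereas Pdgfra was called there only with thinned cells, in the direction of Pdgfrb.

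Podocytes were the epithelial class with Pdgfrb, at 13.8 and 16.6 CPM against 0.308 to 3.50 in the others tested (log2 fold change 2.99, SE 0.35, adjusted p = 7.87e-08). The mural marker list summed to 98.1 and 103 CPM in podocytes and to 9752 and 13192 in mural cells. Its part in the podocyte level was not tested, and 3.94% and 3.65% of thinned podocytes held a UMI against 0.246% and 0.725% of proximal tubule cells. The podocyte level lay under that of empty barcodes, 25.1 and 25.0 CPM. The call stood in all 11 other settings, among them free RNA subtraction, which put the free share of podocyte UMIs at 11.1% and 0.504%. Endothelium against epithelium was called at 1.32 (adjusted p = 1.14e-04), but it fell to -0.41 with thinned cells and to -3.06 with free RNA subtracted, and no direction can be read from it.

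**Figure D3:**
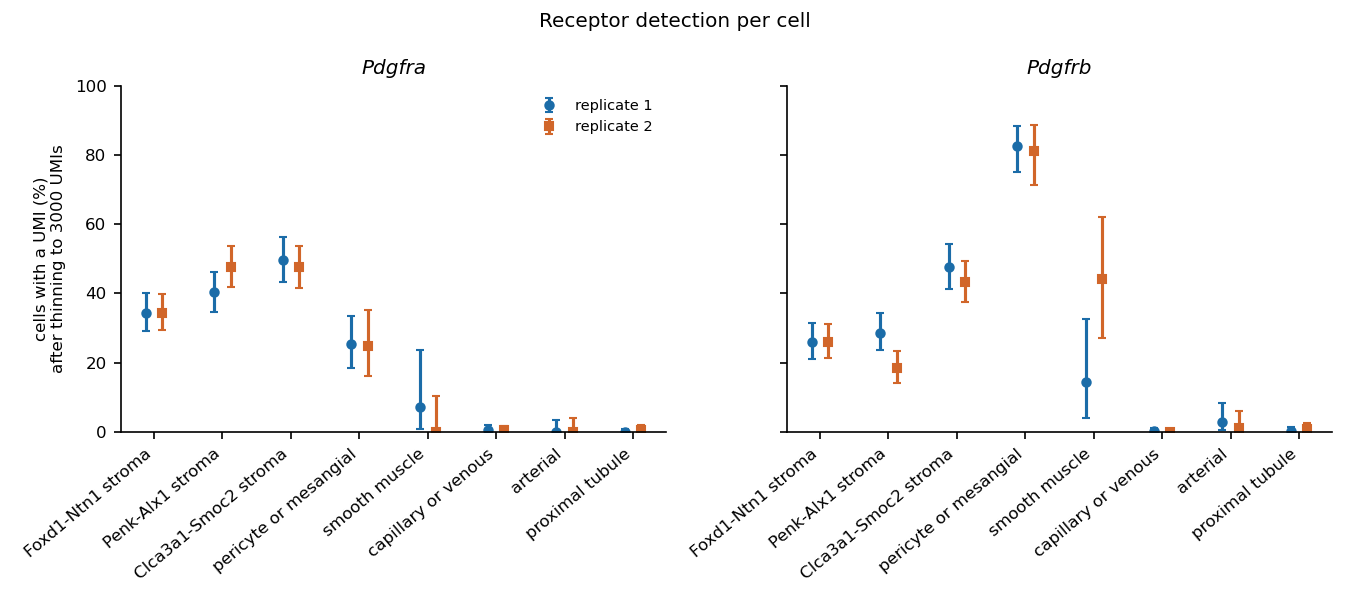
Percentage of cells with a UMI of Pdgfra (left) and Pdgfrb (right) after thinning each cell to 3000 UMIs, by class and library, with exact 95% binomial intervals that cover counting error only. Pdgfra is found across stroma and in about 25.4% and 24.7% of pericyte or mesangial cells, Pdgfrb in 82.6% and 81.2% of pericyte or mesangial cells, and both are near 0 in endothelium and proximal tubule.

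Receptors and ligands were also counted in the same cells. In thinned stroma 147 and 125 cells held UMIs of both receptors, where 155 and 131 would follow from the product of the 2 shares. The joint counts of the receptors were thus close to the product. In the epithelium Pdgfa and Pdgfd met in 104 and 119 cells against 64.5 and 76.7 from the product, and within the loop of Henle in 61 and 78 against 53.7 and 67.6. In endothelium Pdgfb and Pdgfd met in 37 and 44 cells against 27.0 and 33.0, and within arterial cells in 20 and 25 against 19.4 and 28.2. For both ligand pairs the excess over the product was smaller within the class that held both genes.

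**Figure D4:**
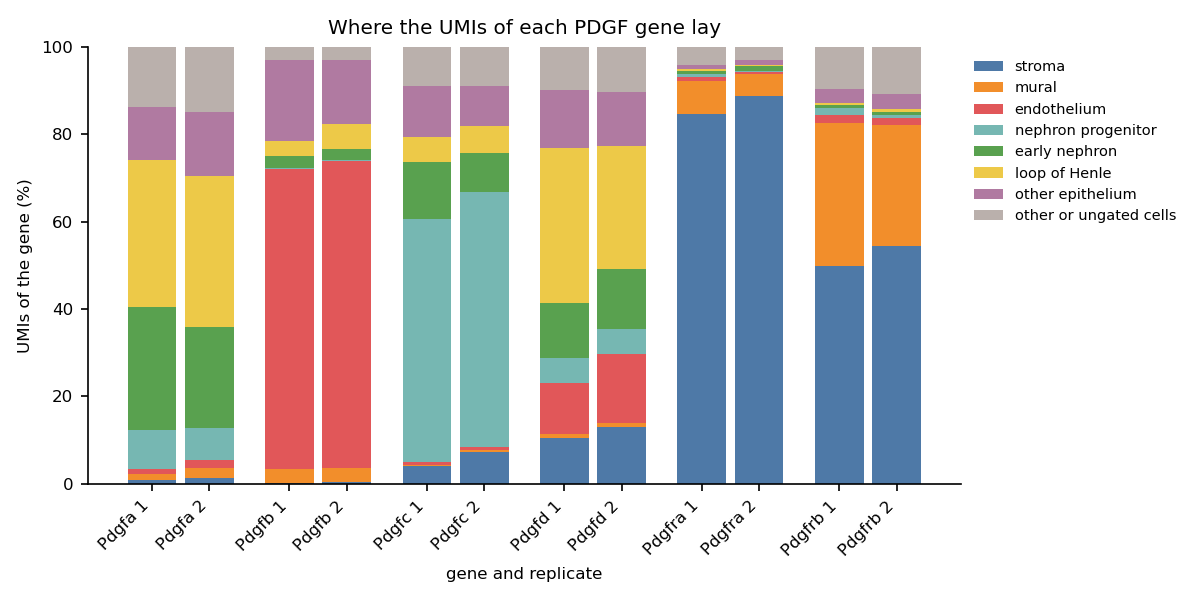
Percentage of all UMIs of each PDGF gene (per library, stacked to 100%) that lay in each group of cells, which depends on cell numbers as well as on levels. Pdgfc lies mostly in nephron progenitors (55.8% and 58.4%), Pdgfb in endothelium (68.7% and 70.3%), Pdgfra in stroma (84.8% and 88.8%), and Pdgfrb in stroma and mural cells together.

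Over the 8 tested epithelial classes, each against the mean of the others, 26 of 48 member tests were called in a fit with 16861 genes. In podocytes 5 of 6 members were called where 53% of all genes were, in the loop of Henle 4 of 6 against 33.7%, in the early nephron 4 of 6 against 51.7% and in the proximal tubule 4 of 6 against 53.7%. The early nephron calls include Pdgfra, at 1.12 and 2.81 CPM on 22 and 38 UMIs, under the 24.0 and 24.8 CPM of empty barcodes. That call stood in 6 of 11 other settings. Intercalated cells had 3 of 6 against 36.7%, and distal tubule, nephron progenitors and ureteric or collecting duct had 2 of 6 each, against 39%, 59.7% and 34.5%. On the log scale of the test all 4 ligands were called higher in the loop of Henle, where 22% of all genes were called higher. By mean CPM, however, Pdgfc was lower there than in the other classes in both libraries (78.7 against 114 and 69.6 against 109.2) and Pdgfb in replicate 1 (6.82 against 8.06), and the smaller differences of Pdgfb (log2 fold change 1.18) and Pdgfc (0.85) were lost when cells were limited to 10% mitochondrial UMIs, at 0.03 and 0.35. In 5 of the 26 epithelial calls the mean CPM gave the other direction in at least 1 library. Between subclasses of 1 compartment 14 of 30 tests were called. Pericyte or mesangial cells against smooth muscle gave 5 of 6 against 11.3% of all genes, Foxd1-Ntn1 stroma against Clca3a1-Smoc2 stroma 3 of 6 against 10.7%, and Foxd1-Ntn1 against Penk-Alx1 stroma 2 of 6 against 8.25%. Penk-Alx1 stroma against Clca3a1-Smoc2 stroma gave 2 of 6 against 5.06%, and capillary or venous against arterial cells 2 of 6 against 18.3%.

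**Figure D5:**
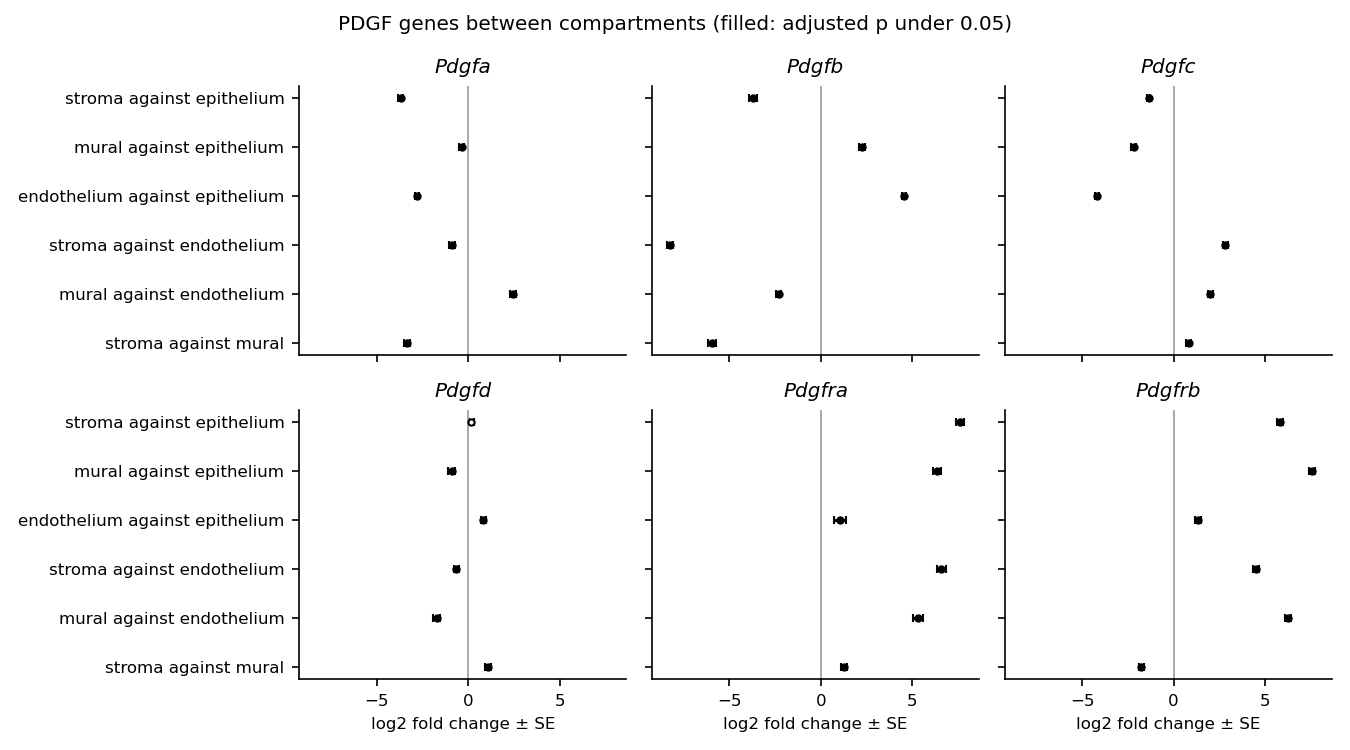
Log2 fold change (x axis, first compartment over second) for each PDGF gene in the 6 pairs of compartments, filled where the adjusted p was under 0.05. The bars are an SE derived from the F statistic of edgeR's quasi-likelihood test. Both receptors lie far to the right wherever stroma or mural cells are set against endothelium or epithelium, Pdgfb lies at -8.25 for stroma against endothelium, and the only open circle is Pdgfd in stroma against epithelium.

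A list of 47 other genes of the pathway (7 ligand-processing proteases, 6 co-receptors or extracellular binders, 22 signal transducers and 12 negative regulators) was read across the same pairs. In stroma 28 of 47 were lower and 13 higher than in endothelium, with a median log2 fold change of -0.57 against 0.02 over all genes. Of all tested genes 50.7% were called in this pair, in either direction. All 7 proteases, which include the enzymes that free the C and D chains, were lower in stroma than in endothelium. Lrp1, an endocytic receptor that is phosphorylated downstream of Pdgfrb, held 190.0 and 191 CPM in stroma and 5.25 and 4.88 in endothelium (log2 fold change 5.19, SE 0.13). The Sprouty genes Spry1 and Spry2, feedback inhibitors of receptor tyrosine kinases, were also higher in stroma (1.95 and 2.09). Lower there were Pik3cb, a catalytic subunit of PI3-kinase (-3.83), Slc9a3r2, a scaffold that binds the receptor tail (-3.70), and the Src-family kinase Fyn (-2.93).

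Mural cells, with the highest Pdgfrb level, had 16 of the 47 higher and 19 lower than endothelium, with a median of -0.09 against -0.03 over all genes, and 26 higher and 8 lower than epithelium, with 0.37 against -0.08. The shares of all tested genes called were 37.8% against endothelium and 49.3% against epithelium. Lrp1 was again higher in mural cells than in endothelium (log2 fold change 4.76), as were the PI3-kinase regulatory subunits Pik3r1 (1.82) and Pik3r2 (1.76). Pik3cb (-3.23), Slc9a3r2 (-3.19) and the proprotein convertase Pcsk5 (-2.85) were lower. Against epithelium, mural cells were higher in Spry4 (3.69), in Sh2b3, an adaptor that dampens kinase signalling (3.42), and in Lrp1 (3.15), and lower in Ptprj, a phosphatase that acts on the receptors (-2.37), and in the adaptor Shb (-1.95). St14, the protease matriptase, lay at 29.2 and 32.2 CPM in epithelium and rests on 1 and 2 UMIs in mural cells, and no fold is given.

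Between stroma and mural cells, the receptor-bearing pair, 5 of 47 genes were higher in stroma and 14 lower, where 21.2% of all genes were called, with a median of -0.20 against 0.04 over all genes. Spry1 (1.09), Pcsk5 (1.01) and Spry2 (0.81) were higher in stroma. Urokinase (Plau), a protease that can activate the D chain, held 2.52 and 1.75 CPM in stroma and 17.0 and 20.2 in mural cells (log2 fold change -3.17, SE 0.25). Slc9a3r1 (-2.78) and Sh2b3 (-1.69) were lower in stroma as well. Stroma against epithelium, where 60.1% of all genes were called, had 20 genes higher and 12 lower with a median of 0.13 against -0.03. They were led by Lrp1 (3.58), Spry4 (2.82) and Pik3r1 (1.92) on the high side and by Plau (-4.26) and Slc9a3r1 (-4.13) on the low side, where St14 had 0.764 and 0.396 CPM in stroma. Endothelium against epithelium, where 64.7% of all genes were called, had 26 higher and 14 lower with a median of 0.52 against -0.05. Slc9a3r2 (4.16), Sh2b3 (3.58) and Sparc, a matrix protein that binds PDGF (2.83), led the higher genes, and St14 (-3.75), Ptprj (-3.39) and Slc9a3r1 (-2.22) the lower ones.

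Likeness of pattern was measured as Pearson's r of log2(CPM + 5) over 34 sums (17 classes in 2 libraries) among 10226 genes, a description in which all sums of a library share its depth. The receptors had close neighbours. Pdgfra was most like Col16a1 (0.965), Gria4 (0.964) and Kcnt2 (0.960), and Pdgfrb most like Cd248, a pericyte and fibroblast surface protein (0.975), Gm17501 (0.964) and Pcdh18 (0.960). Pdgfb followed with Cldn15 (0.891), Cbfa2t3 (0.883) and Cracr2b (0.864). The other ligands, with peaks in more than 1 lineage, had looser neighbours: Lama1 (0.773), Map2 (0.762) and Klhl14 (0.751) for Pdgfa, Slc16a1 (0.757), Cenpv (0.747) and Ipo5 (0.723) for Pdgfc, and Klf12 (0.771) and Tspan7 (0.699) for Pdgfd.

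When the 17 classes were ranked by mean level, neighbours in rank overlapped between libraries in 6 of 16 steps for Pdgfa and 9 for Pdgfb. For Pdgfd, Pdgfra and Pdgfrb 12 of 16 steps overlapped and for Pdgfc 13. The leading class stood clear of the next for every member. Some classes were uneven between libraries. In erythroid cells (33 and 55 cells) Pdgfa lay at 244 and 21.5 CPM on 83 and 14 UMIs, and Pdgfc in immune cells (141 and 82 cells) at 23.3 and 56.6. Pdgfrb lay at 0.308 and 3.08 CPM in intercalated cells, on 1 and 7 UMIs. Immune cells held 27.2 and 11.1 CPM of Pdgfb.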

How the data were processed

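The 2 libraries of newborn mouse kidney were analysed. The deposited files hold raw UMI counts per gene and barcode, made with Cell Ranger 4 per the file headers, and Cell Ranger 6.0.1 and mm10 per the submitters' processing notes. Kits were 3' droplet kits per the labels. Barcodes qualified as cells from 3000 UMIs and 500 genes upward if no more than 20% of their UMIs were mitochondrial, and the highest Scrublet scores (0.8% per 1000 cells, 245 and 142 cells) were removed as doublets. A cell took the marker list (15 lists) with the highest mean scaled log expression, if that was at least 0.15 and led the next by at least 0.05. Classes were called by their lists, and 657 cells had none. Counts were summed per library and class. edgeR 4.0.16 (R 4.3.3; quasi-likelihood test, TMM scaling, filterByExpr, library as a term, two-sided, Benjamini-Hochberg over all tested genes, threshold 0.05) tested 4 compartments (8 sums) and, in a second fit, 17 classes that reached 20 cells in each library (34 sums). The SE given with a fold change is the absolute log2 fold change divided by the square root of the test's F statistic. It is not a standard error reported by the fit, and it can be too small for genes with few UMIs. The scripts were tested on simulated data. Alternatives included DESeq2 1.42.0, Leiden clusters (scanpy 1.11.5), other filters, thinning to 3000 UMIs and subtraction of the empty-barcode profile. Empty barcodes had at most 100 UMIs. Shares of cells carry exact binomial intervals at 95%, which cover counting error only. Background classes for the shares were chosen after the values were seen. Named pathway genes are up to 3 per direction and pair with the largest change among those called with 1 sign in both libraries, and named neighbours are the 3 highest correlations among genes with a mean of at least 10 CPM, of which 1 is not reported here. The members, markers and gene lists were chosen with earlier results of these data known.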

Additional observations from a re-analysis of the deposited data

How the results depend on the processing

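Of 36 differences between compartments 35 were called, and 24 to 35 in the 12 alternative settings, fewest with free RNA subtracted. That subtraction scaled the empty-barcode profile to haemoglobin counts. The share of UMIs estimated as free RNA was 56.5% in mural cells of replicate 2 and 100% in smooth muscle there. The scaled profile was taken off gene by gene and not below 0, so that genes above it kept counts. The subtraction turned Pdgfra and Pdgfrb in endothelium against epithelium (-5.97 and -3.06) and Pdgfa in stroma against endothelium (1.31). Thinning turned Pdgfrb in endothelium against epithelium (-0.41) and Pdgfa in mural cells against epithelium (0.0069). The latter also turned with Leiden clusters (0.22) and with 1 fit over all fine classes (0.25), which weights classes alike and also turned Pdgfd in mural cells against epithelium (0.46) and Pdgfc in stroma against mural cells (-0.59). In the early nephron, Leiden clusters gave Pdgfb 0.91, Pdgfra -0.25 and Pdgfrb 1.31, each of the opposite sign; the cause was not tested. Epithelial calls numbered 26 of 48 and 20 to 27 elsewhere, with 42 tests where cells had at most 10% mitochondrial UMIs. Subclass calls fell from 14 of 30 to 9 of 24 with Leiden clusters, with at least 10000 UMIs per cell and with the stricter gate, where classes dropped under 20 cells, and to 9 of 30 with free RNA subtracted. Pathway calls were 201 of 282, and 153 to 207 elsewhere. Cells with both receptors made up 12.6% of thinned stroma, and 56.1% of unthinned stroma. Without replicate 1 or without replicate 2 no residual degrees of freedom among samples remain, and only the values of the other library could be given, none of which turned a called member difference; of the pathway calls, Spry1 in mural cells against epithelium (0.40) lay at -0.0030 in replicate 1. The main fits pair the classes of a library through a library term, and without it 34, 26 and 10 of the member differences were called between compartments, epithelial classes and subclasses. With free RNA subtracted, stroma against mural cells lost its calls for Pdgfra, Pdgfrb and Pdgfa (adjusted p = 0.628, 0.0750 and 0.0955). Levels under those of empty barcodes limit what can be said of both receptors in endothelium and epithelium and of the ligands in the compartments where they were low.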
